A study of Homo sapiens with 4 samples.

Results

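The genes described here are 10 claudins, the membrane proteins that form the strands of tight junctions, which were chosen by name: CLDN1, CLDN2, CLDN3, CLDN4, CLDN6, CLDN7, CLDN9, CLDN12, CLDN15 and CLDN23. They are 10 of the 59050 gene symbols counted in RNA-seq of HepG2, which the labels give as hepatocellular carcinoma cells. There were 2 libraries of untreated cells (0 h, titled nop53) and 2 of cells treated with doxorubicin at 1 µg/ml for 24 h (titled p53), a drug that damages DNA and was given to induce p53. All 4 share the cell line and its medium, the labels name no engineered allele, and nothing states that the replicates were separate cultures, so that p-values measure the spread between these libraries alone. Each library summed to between 27572740 and 36272180 counts.

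Claudins span the membrane of epithelial cells near their apical edge, and their extracellular loops meet those of the neighbouring cell and close the space between both cells. CLDN1, CLDN3, CLDN4 and CLDN7 are mostly known for tightening this barrier, while CLDN2 and CLDN15 form channels that let small cations through. CLDN6 and CLDN9 are close relatives, of which CLDN6 is best known from embryonic epithelium and some tumors, and CLDN12 and CLDN23 are more distant members of the family. Inside the cell most claudins bind scaffold proteins such as ZO-1 (gene TJP1), and repressors of the SNAI and ZEB families, which bind E-boxes, can silence claudin genes.

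The windows around the transcription start are shown for 4 of the claudins because the results turn on them: CLDN6, which was high in untreated replicate 2 alone; CLDN7 and CLDN12, which were lowest there and above both untreated libraries after doxorubicin; and CLDN1, the most abundant member. Each is a RefSeq window (GRCh38.p14) of 250 bases before to 50 bases after a start, written 5′ to 3′ on the strand of the gene. The gene limits given below are those of GENCODE, and for CLDN6, CLDN7 and CLDN12 they reach further upstream than the starts shown. Capitals mark every match, on either strand, to 4 motifs: the E-box CAGGTG, the AP-1 site TGANTCA, the GC box GGGCGG and the p53 half-site, none of which overlapped another in these windows. The windows are chr16:3018134-3018433 (minus strand) for CLDN6, chr17:7262429-7262728 (minus strand) for the second start of CLDN7, chr7:90403211-90403510 (plus strand) for CLDN12 and chr3:190322397-190322696 (minus strand) for CLDN1.
CLDN6: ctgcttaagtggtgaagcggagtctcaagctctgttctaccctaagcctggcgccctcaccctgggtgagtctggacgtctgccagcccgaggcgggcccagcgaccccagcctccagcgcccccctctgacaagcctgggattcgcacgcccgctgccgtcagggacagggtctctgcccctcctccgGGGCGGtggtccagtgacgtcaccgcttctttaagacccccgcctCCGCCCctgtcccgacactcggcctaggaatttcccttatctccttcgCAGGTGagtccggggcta
CLDN7: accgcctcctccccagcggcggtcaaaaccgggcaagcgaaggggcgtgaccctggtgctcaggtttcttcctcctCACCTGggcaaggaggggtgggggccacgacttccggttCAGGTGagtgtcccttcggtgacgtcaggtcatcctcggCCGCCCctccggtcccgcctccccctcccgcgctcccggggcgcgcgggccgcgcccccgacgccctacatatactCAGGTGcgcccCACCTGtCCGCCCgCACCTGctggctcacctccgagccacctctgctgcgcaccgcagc
CLDN12: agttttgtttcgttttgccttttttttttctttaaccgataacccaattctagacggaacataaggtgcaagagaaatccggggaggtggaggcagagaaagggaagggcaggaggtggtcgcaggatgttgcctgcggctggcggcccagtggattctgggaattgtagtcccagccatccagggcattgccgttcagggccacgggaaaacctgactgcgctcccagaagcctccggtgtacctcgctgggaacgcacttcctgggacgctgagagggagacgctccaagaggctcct
CLDN1: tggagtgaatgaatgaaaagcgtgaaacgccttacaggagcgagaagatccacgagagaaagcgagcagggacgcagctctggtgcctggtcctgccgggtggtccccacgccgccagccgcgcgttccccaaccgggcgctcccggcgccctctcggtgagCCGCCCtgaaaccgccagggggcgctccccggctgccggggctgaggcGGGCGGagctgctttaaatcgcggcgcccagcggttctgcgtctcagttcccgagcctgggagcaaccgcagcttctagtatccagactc
The CLDN7 window shown held 5 E-boxes and 2 GC boxes, while the window of its other start (chr17:7263164-7263463) held no match to any of the 4. There were 2 GC boxes and 1 E-box in the CLDN6 window, 2 GC boxes in the CLDN1 window and no match in the CLDN12 window.

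RefSeq windows were found for 8 of the 10 claudins, 10 windows in all with 2 each for CLDN2 and CLDN7, and CLDN9 and CLDN23 were not matched. The E-box was present in 3 of these 10 windows (of CLDN3, CLDN6 and CLDN7), against 20.6% of the 35093 promoter windows of all genes. The AP-1 site was present in 3 (CLDN2, CLDN4 and CLDN15, against 7.71% of all windows), the GC box in 6 (against 44.9%) and the p53 half-site in 1, the second start of CLDN2 (against 6.64%). A match of letters is a description of the window and not a binding site.

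Before the results, the state of the libraries has to be given. Untreated replicate 2 stood apart from the other 3 libraries: among the 17479 genes that passed the filter on low counts, it was at least 2-fold above the next library in 13.6% and at least 2-fold below it in 19.0%. Markers of liver were low: 9 of 15 had at most 9 counts in every library, ALB among them with at most 3, and the list summed to 0.855 and 4.92 CPM in the untreated and 15.3 and 19.1 CPM in the treated pair (the count divided by the library total and multiplied by 1000000). The liver sum in treated cells was led by the fibrinogen gene FGG (6, 3, 335 and 386 counts), and 3 liver genes, FGA, FGB and FGG, were called as higher without untreated replicate 2. The epithelial list summed to between 6475 and 9385 CPM, led by the keratin gene KRT8. KRT7, KRT8, KRT17 and KRT18 were each at 783 CPM or more in every library. The other keratins of the list were low, with at most 7.43 CPM for KRT14 and at most 17 and 11 counts for KRT19 and KRT5. The epithelial adhesion genes EPCAM and CDH1 had at most 7 and 21 counts. The mesenchymal list, led by VIM, summed to 1594 and 1228 CPM in the untreated and 2253 and 1837 CPM in the treated pair, the blood list to between 2.67 and 5.54 CPM, and the list of pluripotency genes to between 1.35 and 1.85 CPM. NANOG and SOX2 had 0 counts in untreated replicate 2. The part of other cell types in the results was not tested. In bulk RNA, fewer cells with a transcript and less of it per cell cannot be told apart.

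CLDN1 (chromosome 3, 190305707 to 190322446, GRCh38), a sealing claudin, was the main claudin of these cells. It stood at 96.6 and 126 CPM in the untreated pair (replicates 1 and 2) and at 123 and 142 CPM in the treated pair. CLDN1 made up 62.2%, 48.6%, 59.6% and 56.4% of the summed CPM of the 10 claudins in the same order of libraries, and the groups overlapped.

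**Figure D1:**
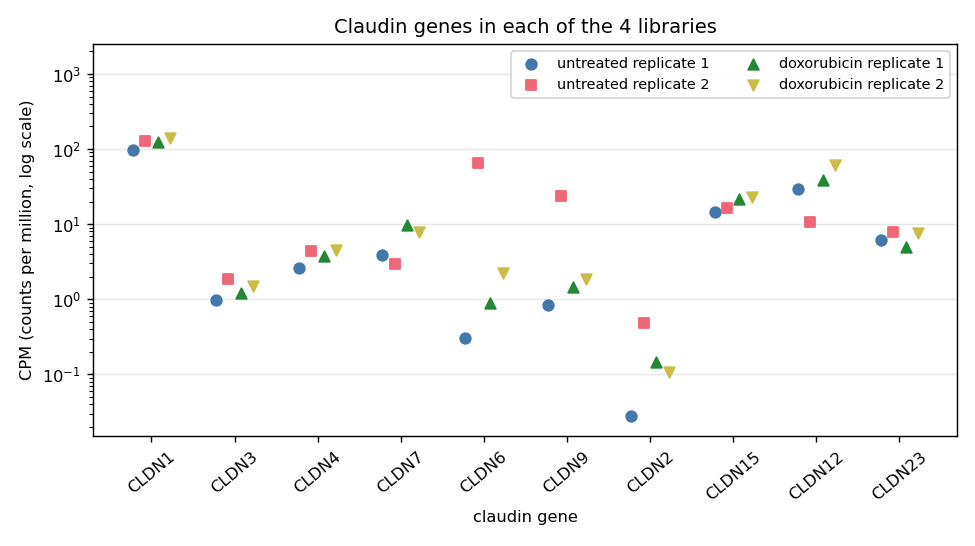
CPM of each of the 10 claudins (horizontal axis) in the 4 libraries, on a log scale (vertical axis), with 1 point per library. CLDN6 and CLDN9 stand far higher in untreated replicate 2 (65.2 and 24.0 CPM) than in the other libraries (at most 2.25 and 1.85 CPM), while the points of CLDN1 lie close together.

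For a comparison between genes the CPM was divided by the exonic length in kb (RPKM), which joins the exons of all transcripts used. For CLDN15 it is 2384 bases, against 1224 in the canonical transcript, and for CLDN4 4193 against 1695. The order below depends on this choice of length. By mean RPKM over the 4 libraries the order was CLDN1 (35.4), CLDN6 (9.87), CLDN12 (9.72), CLDN15 (7.94), CLDN9 (4.45), CLDN23 (3.08), CLDN7 (2.96), CLDN3 (1.10), CLDN4 (0.91) and CLDN2 (0.056). CLDN12 and CLDN15 overlapped in their ranges over libraries, as did CLDN23 with CLDN7 and CLDN3 with CLDN4. The places of CLDN6 and CLDN9 were set by 1 library. CLDN6 was in place 9 of 10 in untreated replicate 1 (0.17 RPKM) and in place 1 in untreated replicate 2, where its 37.5 RPKM was next to the 36.7 RPKM of CLDN1.

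CLDN6 (chromosome 16, 3014712 to 3020071, minus strand) had 11 and 1883 counts in the untreated pair and 31 and 62 in the treated pair. In CPM these were 0.30, 65.2, 0.90 and 2.25. Untreated replicate 2 was thus 29.0-fold above the next library, doxorubicin replicate 2, and the other 3 libraries were all low. The log2 ratio of untreated replicate 2 to the mean of the other 3 libraries (with 0.5 CPM added to both) was 5.31, place 5 among the 17479 genes. CLDN9 (3012923 to 3014505, plus strand), the neighbour of CLDN6, had 0.83 and 24.0 CPM in the untreated pair and 1.46 and 1.85 CPM in the treated pair. It was 13.0-fold above the next library in untreated replicate 2, with a log2 ratio of 3.71 (place 74). CLDN6 and CLDN9 were the 2 members with untreated replicate 2 at least 10-fold above the next library, which was the case for 1.05% of all genes tested.

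The other claudins gave a mixed picture in that library. It held the highest level for 4 of the 9 members that passed the filter, against 36.6% of all genes tested, and for CLDN2, which did not pass. Besides CLDN6 and CLDN9 the 4 were CLDN3 and CLDN23. CLDN2, a cation channel, had 1 and 14 counts in the untreated pair and 5 and 3 in the treated pair, so that it was at or under the limit of 3 counts in 2 libraries and it did not pass the filter. CLDN3, a barrier claudin, had 0.99 and 1.87 CPM in untreated and 1.19 and 1.52 CPM in doxorubicin-treated cells, and untreated replicate 2 was 1.23-fold above the next library. For CLDN23 that ratio was 1.04 (6.07, 7.93, 4.98 and 7.62 CPM in the same order). At least 2-fold above the next library were thus CLDN2, CLDN6 and CLDN9.

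CLDN7 and CLDN12 went the other way, with untreated replicate 2 as the lowest library (45.0% of all genes tested). CLDN7, a barrier claudin, had 3.94 and 2.91 CPM in untreated cells and 9.65 and 7.98 CPM in treated cells. CLDN12 (chromosome 7, 90383721 to 90513402) had 29.4 and 10.7 CPM in untreated cells and 39.2 and 61.1 CPM in treated cells, and was 2.74-fold below the next library in untreated replicate 2. CLDN1, CLDN4 and CLDN15 had untreated replicate 2 between the other libraries. When the library sizes were scaled by TMM factors, untreated replicate 2 was the highest in 7 of the 10 members, CLDN1 and CLDN4 being added. Its factor of 0.951, beside 1.02 and 1.09 for the doxorubicin libraries, raises it against these for every gene. The share of all genes highest there after scaling was not counted.

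The difference between untreated replicate 2 and the other libraries moved with transcript length and GC content over all genes. Across the 14925 genes tested with an annotation, the median log2 ratio of untreated replicate 2 to the other libraries was 0.22 in the 3732 genes with the shortest canonical transcripts (up to 1720 bases) and -0.80 in the 3730 with the longest (from 4886 bases). By GC content it was -0.55 in the lowest of 4 equal bins and 0.11 in the highest. CLDN6 (1366 bases, 57.6% GC) and CLDN9 (1583 bases, 64.5% GC) are short. CLDN3, CLDN4, CLDN7 and CLDN15 (1224 to 1695 bases) are short as well, with log2 ratios of 0.45, 0.23, -1.17 and -0.26. CLDN12 (3533 bases, 37.7% GC) had a log2 ratio of -1.96 and CLDN1, of similar length and GC (3446 bases, 41.3%), one of 0.07. Claudins of similar length lay on both sides of the median of their bin, which describes these few genes alone. The part of length and GC in these values was not tested.

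**Figure D2:**
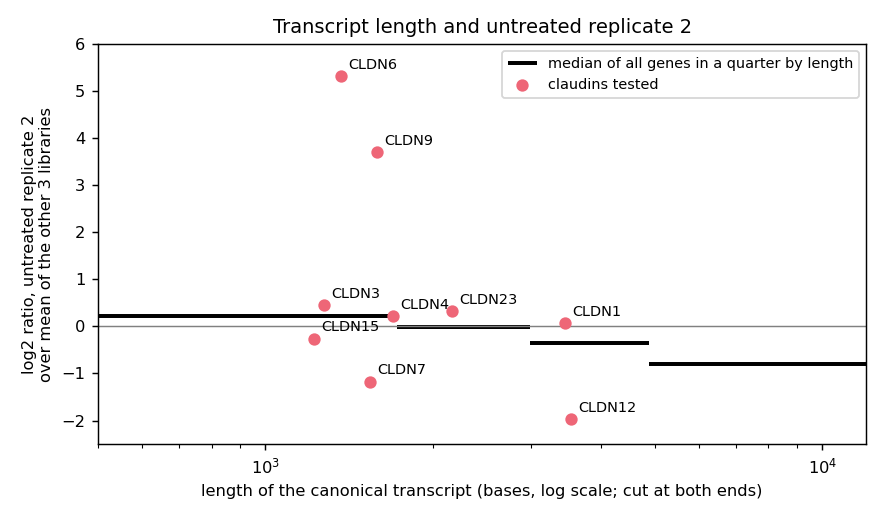
Length of the canonical transcript in bases (horizontal axis, log scale) against the log2 ratio of untreated replicate 2 to the mean of the other 3 libraries (vertical axis) for the 9 claudins tested, with black lines for the median of all genes in each of 4 bins by length. CLDN6 (5.31) and CLDN9 (3.71) lie far above the line of the shortest bin (0.22), and CLDN7 (-1.17) lies below it.

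CLDN9 and CLDN6 lie tail to tail on chromosome 16, with 206 bases between their 3′ ends, and their ratio differed between the libraries. The counts of CLDN6 divided by those of CLDN9 were 0.37 and 2.71 in the untreated pair and 0.62 and 1.22 in the treated pair. The use of strand in the counting is not stated, so reads that run past the end of one gene into the other cannot be told apart from its own. Of the genes within 50 kb of the pair, 11 passed the filter, and untreated replicate 2 was the highest library in 9 of them and at least 2-fold above the next in 5. Over all genes tested these shares were 36.6% and 13.6%. The canonical transcripts of the 11 had between 57.0% and 68.7% GC, and the part of GC content was not tested. Among these neighbours the largest ratio to the next library was 7.20, for the noncoding gene LINC00514. It had 5, 97, 16 and 7 counts and lies 10907 bases before CLDN9. PKMYT1, a kinase that holds back entry into mitosis, had 188 and 462 CPM in untreated and 179 and 171 CPM in treated cells, and PAQR4 had 76.3, 61.6, 67.8 and 60.0 CPM. TNFRSF12A, which encodes the receptor of the cytokine TWEAK, overlaps the upstream part of the annotated CLDN6 gene (3014712 to 3020071) on the opposite strand. TNFRSF12A runs from 3018445 to 3022383 and does not reach the RefSeq window around the CLDN6 start shown above (3018134 to 3018433). It had 318 and 253 CPM in untreated and 441 and 416 CPM in treated cells, and so was lowest in the library where CLDN6 was highest. On the far side HCFC1R1 and THOC6 were 1.53 and 1.44-fold above the next library in untreated replicate 2, with 106 and 54.6 CPM there.

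**Figure D3:**
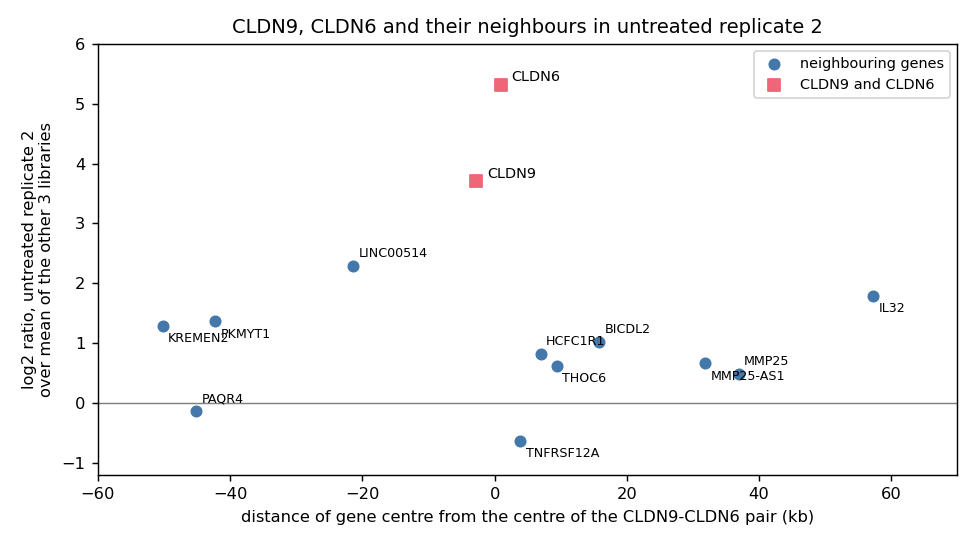
Distance of each gene's centre from the centre of the CLDN9-CLDN6 pair in kb (horizontal axis) against the log2 ratio of untreated replicate 2 to the mean of the other 3 libraries (vertical axis) for the pair and the 11 genes within 50 kb that were tested. CLDN6 (5.31) and CLDN9 (3.71) lie above all of them, and TNFRSF12A (-0.63), which overlaps CLDN6, lies below 0.

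CLDN3 and CLDN4, the other neighbouring pair (chromosome 7, 73768997 to 73770270 and 73799542 to 73832690), are 29271 bases apart and showed no such peak. CLDN4 had 2.62 and 4.36 CPM in untreated and 3.82 and 4.53 CPM in treated cells. The counts of CLDN3 divided by those of CLDN4 stayed between 0.31 and 0.43 in the 4 libraries. Within 50 kb 4 genes were tested, ABHD11-AS1, ABHD11, STX1A and METTL27. Untreated replicate 2 was the highest library in 2 of them, against 36.6% of all genes tested. The largest ratio to the next library among the 4 was 1.71, for ABHD11.

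Whether doxorubicin altered the claudins was asked with the edgeR quasi-likelihood fit over all genes. Of the 10 claudins, 9 passed the filter and 0 were called (log2 fold change of 1 or more in either direction, adjusted p-value below 0.05), as were 0.0% of all 17479 genes tested. Without adjustment 0 of the 9 had a p-value under 0.05, against 4.39% of all genes. DESeq2, the exact test of edgeR and the fit with the replicate number as a block also called 0 claudins. With 2 libraries per group an exact permutation test cannot give a two-sided p-value under 0.333. The median log2 fold change of the 9 claudins was 0.09, with 5 above 0 and 4 below 0, and that of all genes tested was 0.01.

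CLDN7, CLDN12 and CLDN15 were the 3 members with both doxorubicin libraries above both untreated libraries, which was so for 30.3% of all genes tested. None of the 9 tested had both below, which was so for 11.5%. CLDN7 (chromosome 17, 7259903 to 7263983) gave 1.21 on the log2 fold change scale with a standard error of 0.50 (edgeR, Benjamini-Hochberg adjusted p-value 0.773), and its groups did not overlap. CLDN12 had 1.15 with a standard error of 0.58 (adjusted p-value 0.773 in the same edgeR test). CLDN15 (chromosome 7, 101232092 to 101238820), a cation channel of intestinal epithelium, had 14.5 and 16.4 CPM in untreated and 21.7 and 23.0 CPM in treated cells, which gave 0.37 on the log2 scale with a standard error of 0.39.

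For CLDN1, CLDN4, CLDN3 and CLDN23 the libraries of both groups overlapped, with log2 fold changes of 0.09, 0.11, -0.22 and -0.32 and standard errors of 0.32, 0.54, 0.61 and 0.49. CLDN6 and CLDN9 had the largest values in size, -4.56 and -3.06, with standard errors of 1.99 and 1.43, each set by untreated replicate 2. Both doxorubicin libraries of either gene lay between the untreated replicates.

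Without untreated replicate 2, the fit compared both doxorubicin libraries with the lone untreated replicate 1, whose spread is assumed to equal that of the treated libraries. CLDN6 and CLDN7 were then called as higher after doxorubicin, 2 of the 9 claudins tested, against 3.88% of 18356 genes called as higher and 4.44% called in either direction. CLDN6 turned from -4.56 to 2.17 (standard error 0.64, edgeR adjusted p-value 0.0177), resting on 11 counts in untreated replicate 1. CLDN7 had 1.02 (standard error 0.33, adjusted p-value 0.0401 in that edgeR fit) and kept its direction. The log2 fold changes of the others were 0.84 for CLDN9, 0.61 for CLDN12, 0.52 for CLDN4, 0.48 for CLDN15, 0.31 for CLDN1, 0.29 for CLDN3 and -0.11 for CLDN23, so that 8 of the 9 were above 0. Their median was 0.52 and that of the genes of the main test 0.04. Both doxorubicin libraries lay on one side of untreated replicate 1 in 8 of these 9, which is near the 77.8% of all genes tested for which this was so.

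Without untreated replicate 1 instead, 5 claudins were called, CLDN7 (1.52) and CLDN12 (2.13) as higher and CLDN6 (-5.50), CLDN9 (-3.95) and CLDN2 (-1.96) as lower, in a fit that called 44.4% of all 19606 genes. Against either untreated library, the log2 fold changes of CLDN7, CLDN12 and CLDN15 were above 0 and that of CLDN23 was below 0. For CLDN23 the value against untreated replicate 1 was -0.11, near 0. Its doxorubicin libraries (4.98 and 7.62 CPM) lay on both sides of untreated replicate 1 (6.07 CPM). In CPM without TMM scaling, its treated mean was 1.04-fold that of untreated replicate 1. Both fits share the same doxorubicin libraries, so they are not independent. How many of all genes kept their direction in both was not counted. The log2 fold change of CLDN7 was between 1.02 and 1.52 whichever library was left out, and that of CLDN12 between 0.61 and 2.13.

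**Figure D4:**
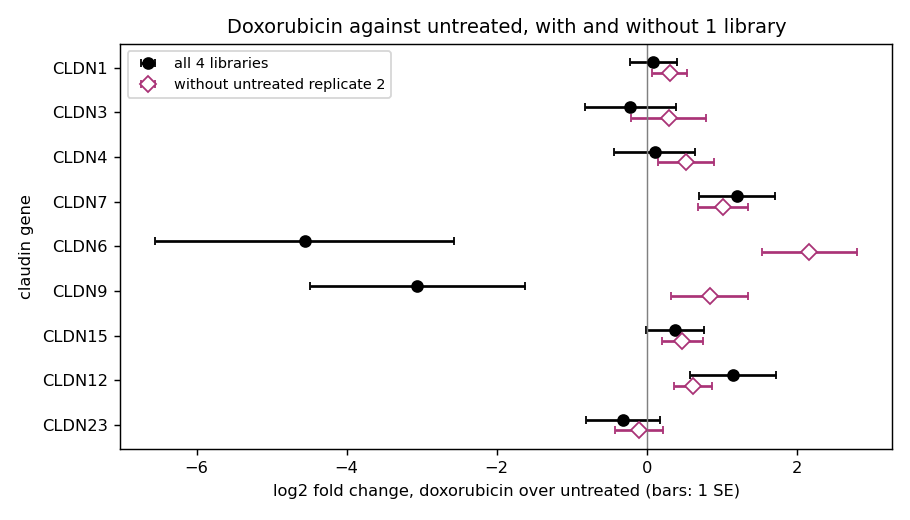
Log2 fold change of doxorubicin-treated over untreated cells (horizontal axis, bars of 1 standard error) for the 9 claudins tested, from all 4 libraries and without untreated replicate 2. CLDN6 moves from -4.56 to 2.17 and CLDN9 from -3.06 to 0.84, while CLDN7 stays at 1.21 and 1.02.

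Most of the remaining 14 claudin genes were near silent. Of the 14, 11 had at most 9 counts in every library, among them 3 with none. CLDN5, CLDN14 and CLDN18 passed the filter. CLDN5, the claudin of blood vessel endothelium, was also highest in untreated replicate 2, with 16 and 61 counts in untreated and 32 and 26 in treated cells, 2.24-fold above the next library in CPM. CLDN18, known from stomach and lung, had 15 and 20 counts in untreated and 26 and 25 in treated cells. CLDN14, known from the inner ear and kidney, had 0 and 2 counts in untreated and 16 and 12 in treated cells. CLDN14 had an unadjusted p-value of 0.0198 and an adjusted p-value of 0.773 in the edgeR test, and its fitted fold change rests on 2 counts in the untreated group. It was called as higher without untreated replicate 2 (edgeR adjusted p-value 0.0164), on 0 counts in untreated replicate 1.

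Other genes of the tight junction were examined as a list of 44, of which 37 passed the filter. The edgeR test called 0 and gave 1 an unadjusted p-value under 0.05, against 4.39% of all genes tested. There were 20 log2 fold changes above 0 and 17 below, with a median of 0.24. Untreated replicate 2 was the highest library in 8 of the 37 and the lowest in 18, and at least 2-fold below the next library in 12. Over all genes tested these shares were 36.6%, 45.0% and 19.0%. The median log2 ratio of untreated replicate 2 to the others was -0.11 for the 14 transmembrane genes tested, -0.90 for the 15 scaffold genes and -1.47 for the 8 polarity genes, beside -0.15 for all genes tested and 0.23 for the 9 claudins. Canonical transcripts of the scaffold and polarity genes tested ranged from 1244 bases (PARD6A) to 8980 (AMOTL1), and many were long. Over all genes the median was -0.80 in the longest bin (from 4886 bases). The part of length in these medians was not tested.

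TJP1, which encodes the scaffold ZO-1, had 13.8 and 2.49 CPM in untreated and 11.6 and 15.2 CPM in treated cells, and was 4.66-fold below the next library in untreated replicate 2. Occludin, the other classical strand protein, was nearly absent, since OCLN had 1 and 0 counts in untreated and 2 and 15 in treated cells. F11R, which encodes the junctional adhesion molecule JAM-A, had 4.71 and 6.93 CPM in untreated and 7.93 and 9.25 CPM in treated cells. The 4 libraries of F11R thus resembled those of CLDN15 in order, with the treated ones above. The list genes with the highest log2 fold changes were the scaffold gene PATJ (1.24, standard error 0.58), NECTIN4, a nectin of epithelial cells (1.17, standard error 0.51), and USP53 (1.06, standard error 0.62). Those with the lowest were CGN, which encodes cingulin (-2.16, standard error 0.76), the endothelial adhesion gene ESAM (-1.54, standard error 0.72) and MARVELD2, which encodes tricellulin (-1.10, standard error 0.61). The adjusted p-value of each of these 6 was 0.773 (edgeR, Benjamini-Hochberg). Without untreated replicate 2, NECTIN4 was called as higher (1.33, adjusted p-value 0.0061) and CGN as lower (-1.09, adjusted p-value 0.0405) in the edgeR fit. NECTIN4 had 2.95 and 3.60 CPM in untreated and 9.44 and 6.82 CPM in treated cells.

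**Figure D5:**
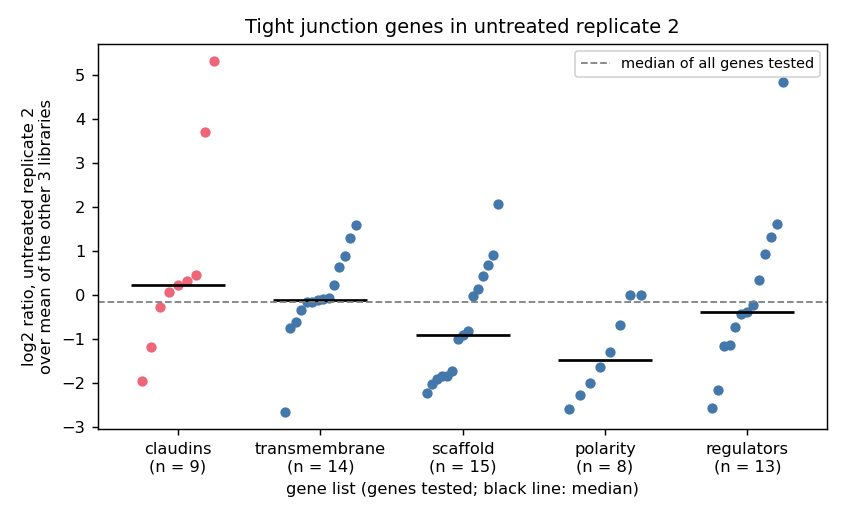
Log2 ratio of untreated replicate 2 to the mean of the other 3 libraries (vertical axis) for each tested gene of the claudins, 3 tight junction lists and the claudin regulators (horizontal axis), with black lines for the medians and a dashed line for all genes (-0.15). The polarity genes have a median of -1.47, and CLDN6, CLDN9 and, among the regulators, SNAI1 lie highest. The lists were not matched to each other or to all genes in transcript length.

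Transcription factors known to act on claudin genes formed a list of 19, of which 13 passed the filter. The edgeR test called 0 and gave 1 an unadjusted p-value under 0.05 (4.39% of all genes tested). That gene was SNAI1, a repressor that binds the E-box letters shown above, with 4.60 and 146 CPM in untreated and 3.76 and 5.44 CPM in treated cells and a log2 fold change of -4.19. SNAI1 was 26.8-fold above the next library in untreated replicate 2. OVOL1, an epithelial factor of the list, had 0 and 105 counts in untreated and 1 and 1 in treated cells and did not pass the filter. The filter requires counts in more than 1 library, so that genes like OVOL1 are left out of the shares of genes tested. Of the 7 repressors of the list, 3 were highest in untreated replicate 2 and 3 lowest, against 36.6% and 45.0% of all genes tested. SNAI2 had 20.7 and 35.3 CPM in untreated and 48.4 and 55.7 CPM in treated cells, and was called as higher without untreated replicate 2 (1.18, edgeR adjusted p-value 4.9e-04). EHF, an epithelial factor, was called as lower in that fit (-1.0, edgeR adjusted p-value 0.0156), with 12.6 and 1.59 CPM in untreated and 7.96 and 5.84 CPM in treated cells. ZEB1, a further repressor, had 13.8 and 3.32 CPM in untreated and 20.0 and 32.3 CPM in treated cells (log2 fold change 1.43), 4.16-fold below the next library in untreated replicate 2. ZEB2 was also lowest there, with 11.6 and 8.10 CPM in untreated and 18.5 and 24.8 CPM in treated cells (log2 fold change 0.97). The epithelial factor GRHL2 had at most 6 counts in any library. HNF4A, a factor of liver and gut, had the highest log2 fold change of the list, 1.68, with 21 and 8 counts in untreated and 66 and 33 in treated cells. ELF3, an epithelial factor, had 40.8 and 111 CPM in untreated and 32.6 and 34.3 CPM in treated cells (log2 fold change -1.34), and GRHL3 had -1.06. All of these values other than those named as called had an adjusted p-value of at least 0.773 in the edgeR test.

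The genes whose levels in the 4 libraries were most like those of CLDN6 were FOSB, SOX9, RASD1, ZNF425 and DLL4, at distances of 0.34, 0.42, 0.88, 0.89 and 0.97 (Euclidean distance of log2 of CPM plus 0.5, centred on each gene's mean). CLDN9 was in place 41 in this order, CLDN3 in place 4613 and CLDN1 in place 6709. FOSB, an immediate early factor of the AP-1 family, had 2.12 and 232 CPM in untreated and 4.31 and 6.67 CPM in treated cells. SOX9 had 0.88, 79.5, 1.81 and 3.12 CPM in the same order. These 5 genes were picked by likeness to CLDN6, so that a peak in untreated replicate 2 follows from the choice. It was 25.5 to 38.6-fold over the next library.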

How the data were processed

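RNA-seq of 4 HepG2 libraries, 2 untreated and 2 treated with doxorubicin, was grouped by sample title. A treatment tag of the treated samples reads p53-miRNA, which differs from the titles and the treatment protocol used here. The authors selected poly(A) RNA with poly-T beads, checked reads with FastQC, trimmed them with Cutadapt, aligned to hg38 with HISAT2 and deposited raw counts per gene symbol, 1 library each, on GENCODE release 31 as the headers name it. The methods name HTSeq, while the layout is that of featureCounts. Tool versions and the use of strand are not given in the sources used here.

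CPM is the count divided by the column total and multiplied by 1000000. Counts of all genes were tested in R 4.3.3 with edgeR 4.0.16 (filterByExpr with a minimum count of 10, TMM, glmQLFit, glmQLFTest, prior count 0.125), with Benjamini-Hochberg adjustment over the 17479 genes tested. A gene was called at a log2 fold change of 1 or more in either direction with an adjusted p-value below 0.05. Standard errors were taken from the F statistic. DESeq2 1.42.0 and the settings named in the closing section were alternatives. The fit was tested on simulated counts. Of the 59050 symbols, 37472 were matched to GENCODE release 44 (GRCh38), 754 by older symbols, for positions, exonic length, and length and GC content of the canonical transcript. PALS1 was counted under its older symbol MPP5.

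A level of 3 counts equals between 0.0827 and 0.109 CPM. Such limits cover counting error alone. The members, the gene lists and the tests were chosen with earlier results of these data known. Genes named besides the members were the claudins past the filter, the 3 highest and 3 lowest log2 fold changes of each list with TJP1, OCLN, F11R, SNAI1 and GRHL2, the nearest genes around both claudin pairs and the 5 genes most like CLDN6. EPCAM, CDH1, ALB, FGA, FGB, FGG, EHF, NANOG, SOX2, NECTIN4 and SNAI2 without 1 library, and the other genes of the locus named, were added after their values were seen. So were KRT5, KRT7, KRT14, KRT17, KRT18, KRT19, DCN, LUM, OVOL1 and the fold change of KRT8. Computations in Python 3.11.15 used pandas 2.3.3 and NumPy 2.4.6.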

Additional observations from a re-analysis of the deposited data

How the results depend on the processing

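The count of all genes called was 0 in the main test (768 at an unadjusted p-value under 0.05), 89 with DESeq2, 46 with the exact test of edgeR and 20 with the replicate block, and between 0 and 8697 with 1 library left out. The claudins called were 0 in every fit with all 4 libraries and between 0 and 5 with 1 library left out, with 5 without untreated replicate 1 and 2 without untreated replicate 2. Claudins with an unadjusted p-value under 0.05 were 0 in the main test, 3 with DESeq2, 2 with the exact test and 2 with no low-count filter. There was 1 each with library size alone, a filter of 1 CPM in 2 libraries and the replicate block. The share of all genes under this p-value was counted for the main test alone (4.39%), so the other counts cannot be set against one. The labels share replicate numbers between the groups, but the deviations of same-numbered libraries from the group means correlated at 0.0219, and the block rests on the number alone. It called no claudin. The median log2 fold change of the claudins was between -0.29 and 0.52 with 1 library left out, and the genes called from the tight junction list were between 0 and 19, the 19 being of 39 tested without untreated replicate 1, where 44.4% of all genes were called.

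The direction turned for CLDN6 (between -5.50 and 2.17), CLDN9 (between -3.95 and 0.84) and CLDN3 (between -0.56 and 0.29) without untreated replicate 2, and for CLDN1 (between -0.021 and 0.31) and CLDN4 (between -0.15 and 0.52) without untreated replicate 1, and under no other setting. Untreated replicate 2 was the highest library in 5 claudins, in 3 by at least 2-fold and in 2 by at least 10-fold (a margin added after seeing the data). The 3 claudins with doxorubicin libraries on one side of both untreated libraries became between 4 and 9 of 10 with 1 library left out, which leaves fewer libraries to overlap: this was so for between 54.5% and 91.1% of all genes tested. Scaling by library size alone moved the median log2 fold change of all genes from 0.01 to 0.17. The legacy setting of glmQLFit, added after seeing the data, RLE factors and a prior count of 2 changed none of the calls or directions of the claudins. No fit was run on outliers within a group, since each has 2 libraries. Levels under 3 counts, as for CLDN2 in untreated replicate 1 (1 count), were not measurable at this depth.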
